A study of Drosophila melanogaster with 11 samples.

Results

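The cytoplasmic ribosomal protein (RP) genes of Drosophila were examined in the peak lists of un-driven m8 DamID. A gene was counted as a member when its symbol began with RpL or RpS followed by a digit, and 88 genes of the Release 6 annotation, 50 RpL and 38 RpS, met this rule among 17557 genes on the chromosome arms. The lists named 19 of the 88, of which 13 had a peak that intersected the gene and 6 were only the nearest gene on a side of a peak. The remaining 69 RP genes were named nowhere.

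The series holds 11 libraries of 6 conditions from whole Drosophila embryos. The label of the lists gives DamID of m8 and names no driver. They were therefore assigned to m8-DamID and not to the driven pros-Gal4-m8-DamID. In m8-DamID, embryos of stage 9 to 16, raised at 26 °C, carried a UAS transgene of Dam fused to E(spl)m8-HLH with no Gal4 driver. The fusion came from weak leakiness of the UAS promoter, which the study describes as ubiquitous, after a transcriptional stop cassette had been excised. The lists hold 1 of the 2 m8-DamID libraries, with 1925156 reads behind the normalised values. The other 5 conditions were not analysed here. With 1 library there is no replicate, so no difference below was tested, and the intervals given are exact 95% Poisson intervals of read counts that cover counting error alone, and PCR copies of a fragment count as separate reads in them. No library of unfused Dam is among the 11, so methylation at accessible chromatin cannot be told apart from methylation at m8 sites.

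RP genes encode the protein components of the large (RpL) and small (RpS) ribosomal subunits. They are short, highly expressed in nearly every cell, and many are haploinsufficient in the fly, where loss of a copy gives the Minute phenotype of thin bristles and slow growth. E(spl)m8-HLH is a bHLH repressor induced by Notch signaling, and proteins of its family bind the canonical E-box CACGTG, the related box with the letters CACGCG and the N-box CACNAG. In DamID the Dam methylase marks the adenine of GATC near the places where the fusion meets DNA. DpnI then cuts the methylated sites, DpnII destroys fragments with an unmethylated site inside, and PCR amplifies the DNA between neighbouring methylated sites. A peak therefore reports GATC fragments and not single bases.

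Among the RP genes that the lists name as intersected, RpL37A had the highest peak, and it lies on arm 2L, where the positions in the lists match Release 6. Its sequences are shown because they frame that peak. In these windows, taken from the plus strand of Release 6 of RefSeq, capitals mark GATC or, in the line named for the E-box, CACGTG. Position 2L:5070260-5070289 holds the site where the MACS peak starts, in a coding exon of the neighbouring gene qtc. Position 2L:5070651-5070680 holds the site where the Qseq peak starts, in the last exon of the qtc transcripts that end nearest to RpL37A. Position 2L:5071702-5071731 holds the next site downstream, in the last coding exon of RpL37A, and 2L:5071080-5071109 the CACGTG between them.
RpL37A MACS left end: ccgagaagcagaaGATCagcgccgccaatc
RpL37A left site: cgtagtttttgtaGATCtagctaatcaagt
RpL37A right site: gccgcctccgtgcGATCcgccgtccgtcgt
RpL37A E-box site: ttatctcattttCACGTGcacagaatactg

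The 206 bases between the end of qtc and the start of RpL37A (2L:5070751-5070956, plus strand, intergenic) lie wholly inside the peak. This stretch is shown because it is the promoter side of the gene, and it has no capitals because it held no GATC and no match to the E-box, the related box or the N-box on either strand.
RpL37A upstream: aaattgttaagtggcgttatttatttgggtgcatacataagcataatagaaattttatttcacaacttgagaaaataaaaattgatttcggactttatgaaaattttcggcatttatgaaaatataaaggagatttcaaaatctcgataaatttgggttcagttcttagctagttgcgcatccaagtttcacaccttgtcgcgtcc

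Peaks had been called with Qseq and with MACS on the same library, and the value of a peak is its number of reads per 1000000 reads (RPM). The Qseq list keeps peaks above 20 RPM, and the MACS peaks are split into a list above and a list under 20 RPM. In the Qseq list, peaks intersected 4 RP genes, RpL37A, RpS9, RpL6 and RpS30. This is 4.55% of the 88 RP genes, against 10.3% of all genes and 12.4% of protein-coding genes. Among the 10041 other protein-coding genes that are as long as RP genes (304 to 4677 bp) the share was 4.76%, so the RP share was close to the share of genes of this length.

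In the MACS list above 20 RPM, 5 RP genes were intersected (5.68%), the same 4 and RpS28a, against 7.75% of other protein-coding genes in the length range and 14.0% of all genes. The list under 20 RPM read differently. It held 8 further RP genes (9.09%), RpL14, RpL5, RpL21, RpL32, RpS20, RpS25, RpS26 and RpS29, against 2.66% in the length range and 4.72% of all genes. No RP gene was intersected in both MACS lists. Such overlap was rare in the length range too. There, 778 genes were intersected above 20 RPM, 267 under it and 1039 with the MACS lists combined. This absence therefore does not set RP genes apart from genes of their length. Over the 3 lists together, 13 RP genes were intersected (14.8%), against 10.7% in the length range and 17.6% of all genes. The 13 comprised 6 of the 50 RpL genes and 7 of the 38 RpS genes.

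**Figure D1:**
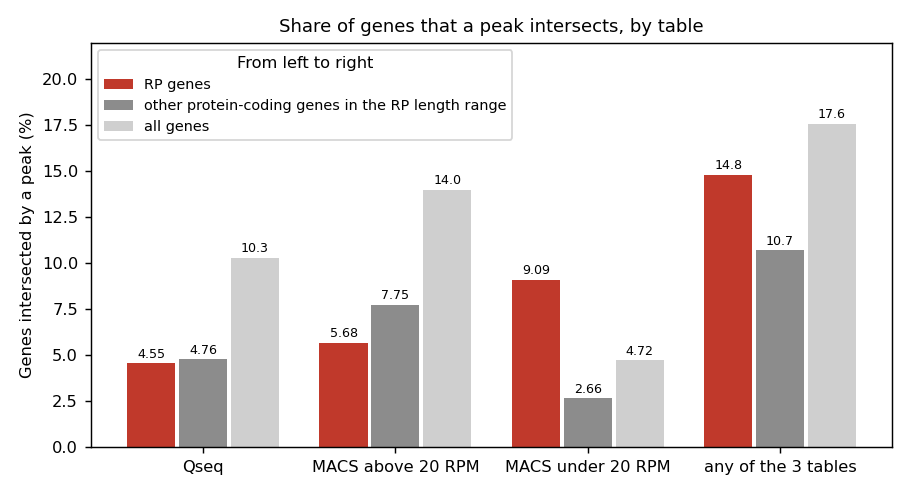
Percent of genes intersected by at least 1 peak (vertical axis) in each list and in the 3 lists together, for the 88 RP genes, for the other protein-coding genes in the RP length range and for all genes, from left to right in each group. The RP bar is below both others in the MACS list above 20 RPM (5.68%) and above both in the list under 20 RPM (9.09%).

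Among the strong peaks, RpL37A, which encodes a zinc-binding protein of the large subunit, had 192 reads and 99.732 RPM in the Qseq list (interval 86.1 to 115). Of all 3973 Qseq peaks, 16.2% were as high or higher. The MACS peak over the same place had 227 reads and 117.913 RPM (103 to 134), and was longer, with 2134 bp against 1199 bp in Qseq. It reached beyond both ends of the gene and into qtc upstream and pgant5 (now Pgant5, which encodes a glycosyltransferase) downstream.

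Counted from the start of RpL37A, the Qseq peak ran from -294 to 904 bp and covered 82.3% of the gene, and the MACS peak ran from -684 to 1449 bp and covered all of it. The Qseq peak began 1 bp before the GATC at -293, whereas the MACS peak began at the GATC at -684. The gene itself holds 2 GATC sites, at 758 and 808 bp, in the coding part and the untranslated part of its last exon. The bulk of the gene body and the promoter thus lay within a single GATC fragment, from -293 to 758 bp, and their signals cannot be told apart. The CACGTG at 135 bp fell into the first intron of transcripts RpL37A-RA and RpL37A-RC and into the first exon, ahead of the coding sequence, of RpL37A-RB. The MACS peak also took in a match to CACNAG at 1057 bp. How often such boxes occur by chance in a stretch of this length was not counted. These matches are therefore a description and not binding sites.

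**Figure D2:**
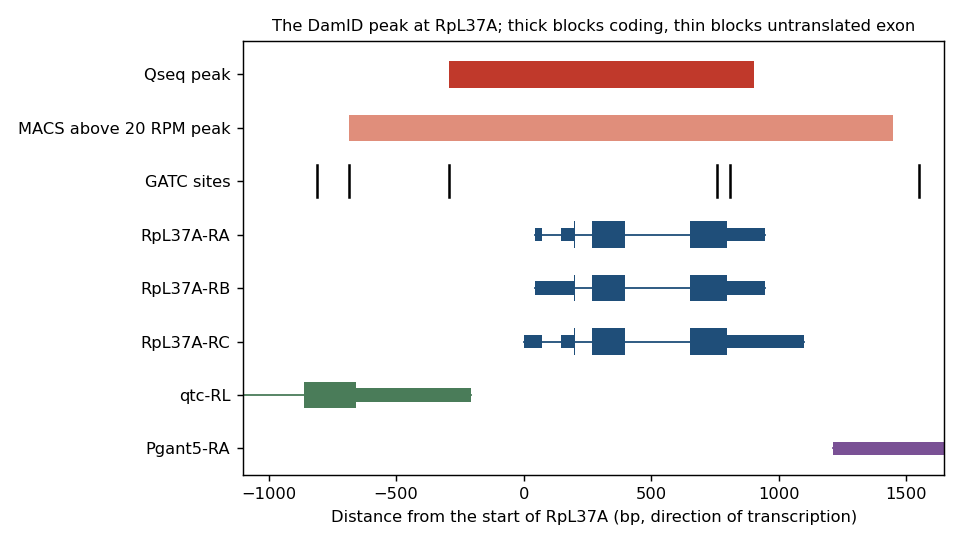
Map of the peak at RpL37A, with the distance from the start of the gene in bp on the horizontal axis, the peaks of both callers, the GATC sites, the 3 transcripts of RpL37A and 1 transcript of each neighbour. Both peaks span the space between qtc and RpL37A, and the ends of the Qseq peak lie at -294 and 904 bp.

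RpS9, whose product belongs to the early-assembling part of the small subunit, shared a Qseq peak of 167 reads with CG3408 (3L:9502441-9503678 in the authors' numbering, which is not Release 6 on most arms), at 86.746 RPM (74.1 to 101). The MACS peak there had 95.057 RPM (81.8 to 110) and also took in snoRNA:Me28S-G3253, a snoRNA gene inside RpS9. RpL6, a large-subunit protein, shared its Qseq peak of 152 reads with CycG, the gene of Cyclin G (3R:27421655-27422596, authors' numbering), at 78.955 RPM (66.9 to 92.6), with 79.474 RPM in MACS. The intervals of the Qseq peaks at RpL37A, RpS9 and RpL6 overlap each other, and differences between these 3 peaks were not tested.

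RpS30, which is made as a fusion to a ubiquitin-like protein, stood lower. Its Qseq peak (3R:16676329-16676801, authors' numbering) had 51 reads and 26.491 RPM (19.7 to 34.8), and 77.8% of Qseq peaks were as high or higher. It was the only Qseq peak that intersected an RP gene and no other gene. The MACS peak there, with 22.855 RPM, was the RP peak just inside the threshold of 20 RPM, and those just outside were RpL14 and RpS20 at 18.180 RPM. RPM grows with the length of a peak, and per kb of peak the Qseq values were closer together, with 161 reads per kb at RpL6, 160 at RpL37A, 135 at RpS9 and 108 at RpS30, against a median of 113 over the list.

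RpS28a, whose product lies near the mRNA exit of the small subunit, was called by MACS alone (3R:25847203-25848145, authors' numbering), with 120 reads and 62.333 RPM (51.7 to 74.5). At 304 bp it is the shortest of the RP genes, and its peak of 943 bp also intersected Mgat2, which encodes an enzyme of N-glycan synthesis. Its paralogs RpS28b and RpS28-like were in no list. How reads that match several copies were placed was not given in the sources used here.

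**Figure D3:**
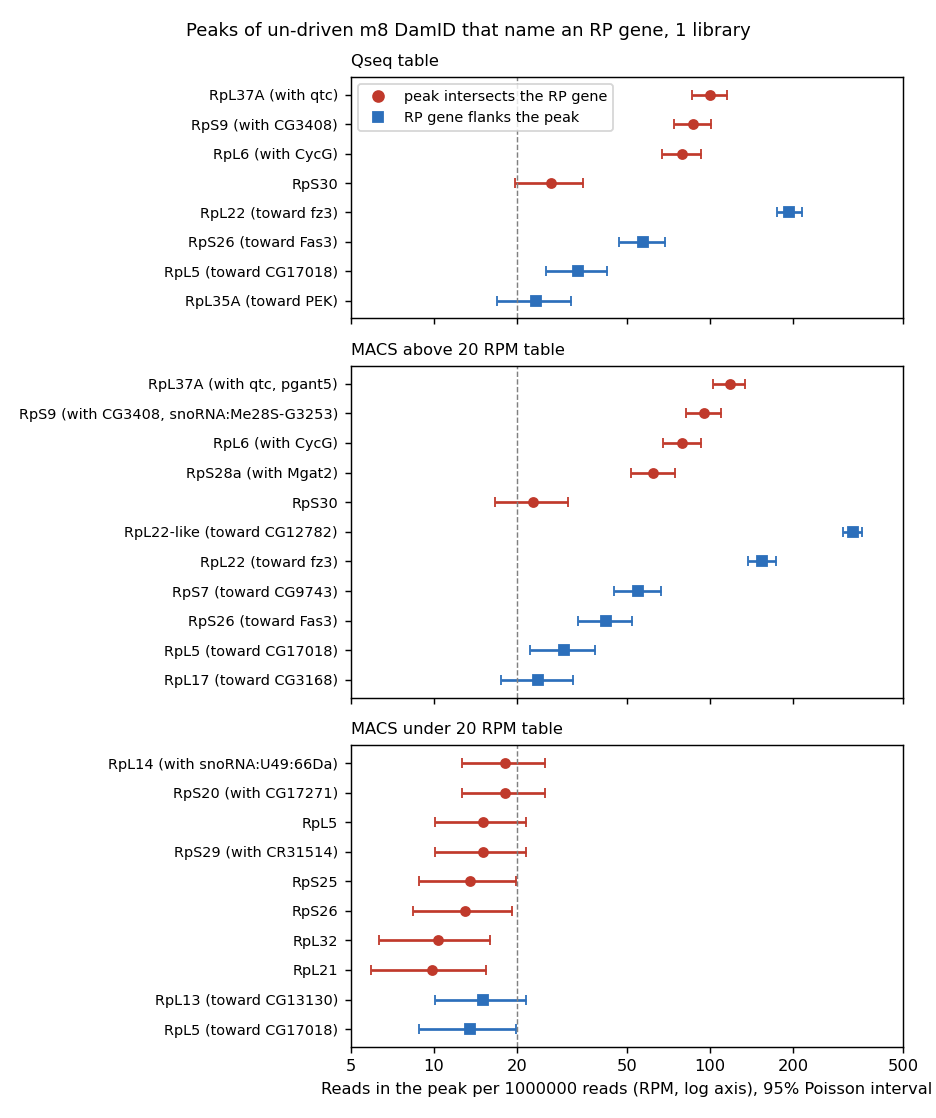
RPM of every peak that names an RP gene (horizontal log axis), with exact 95% Poisson intervals, in the Qseq list and the 2 MACS lists; circles are peaks that intersect the RP gene and squares are peaks it flanks. The dashed line is at 20 RPM, and the highest values belong to the flanking peaks of RpL22-like (328.805 RPM) and RpL22 (194.270 RPM).

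The 8 RP genes of the MACS list under 20 RPM had between 19 and 35 reads. Among the large-subunit genes, RpL14 had 18.180 RPM (12.7 to 25.3) in a peak that also took in snoRNA:U49:66Da, 1 of the snoRNA genes inside it. RpL5, whose product binds the 5S rRNA, had 15.064 RPM (10.1 to 21.6). RpL32, widely used as a reference gene in expression studies, had 10.389 RPM (6.35 to 16.0), and RpL21 had the lowest value of all, 9.869 RPM (5.94 to 15.4).

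Among the small-subunit genes, RpS20 had 18.180 RPM (12.7 to 25.3) in a peak shared with CG17271. RpS29, a zinc-binding protein of the subunit's head, had 15.064 RPM (10.1 to 21.6) in a peak shared with the antisense RNA gene CR31514. RpS25 had 13.505 RPM (8.82 to 19.8), and RpS26, whose product lies at the mRNA exit, had 12.986 RPM (8.40 to 19.2). All 8 intervals reach into the interval of at least 1 other gene of the group, and the order among these genes was not tested. Their density, 44.0 to 56.8 reads per kb, was around the median of 50.2 over this list.

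Overlap between the peaks of both callers was then counted. All 8 Qseq peaks that name an RP gene overlapped a MACS peak by at least 1 bp, and of all Qseq peaks on the arms 78.7% did. Of the 11 RP peaks in the MACS list above 20 RPM, 7 overlapped a Qseq peak, against 61.5% of all peaks in that list. None of the 10 RP peaks under 20 RPM overlapped a Qseq peak, and of all peaks in that list 6.07% did. The Qseq list keeps only peaks above 20 RPM, so this absence cannot show that the callers disagreed there. Since both callers read the same library, an overlap is not a replicate.

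RpL21 gives an example of a weak peak in a single GATC fragment. The peak ran from 314 to 739 bp after the gene start and covered 55.7% of the gene. It lay between GATC sites 513 bp apart, 51 bp from the left site and 40 bp from the right one. The windows around these sites, 2L:22247072-22247101 and 2L:22247585-22247614 (plus strand, GATC in capitals), show the ends of that fragment.
RpL21 left site: agacgttgtcgctGATCaaaactttagttg
RpL21 right site: caacgatgtcgccGATCttgaaaacccgca

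The weak RpS26 peak ran from 574 to 1013 bp after the gene start and covered 22.6% of the gene. In both genes the peak thus lay inside the transcribed part and did not reach the start site. Over all peaks on 2L, the median distance from a peak end to the nearest GATC was 53.0 bp in the Qseq list, 58.5 bp in the MACS list above 20 RPM and 72.0 bp in the list under 20 RPM.

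A peak that intersects neighbouring genes must cover the gap between them, and the orientation of the genes in Release 6 then gives the end of the RP gene that it covers. Of the 13 intersected genes, 6 shared a peak with a neighbour. At RpL37A, RpL6 and RpS20 the peak covered the 5' end. The gap was 206 bp from RpL37A to qtc and 437 bp from RpL6 to CycG, both of which end ahead of the RP gene, and 332 bp from RpS20 to CG17271, which starts there in the opposite direction. At RpS9, RpS28a and RpS29 the peak covered the 3' end. CG3408 starts 209 bp after RpS9 and Mgat2 starts 123 bp after RpS28a, so the peaks there also covered the 5' ends of these neighbours, and RpS29 overlaps the end of CR31514 by 10 bp. Which of the genes such a peak belongs to was not tested. The other 7 peaks intersected no gene but the RP gene and, at RpL14, a snoRNA gene within it.

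In contrast to the named cases, RpS13 was missed by name. On 2L a Qseq peak of 252 reads and 130.898 RPM (115 to 148) that the list gives to CG7627 overlapped the last 48 bp of RpS13, 4.05% of the gene, by the Release 6 positions. The MACS peak there had 116.354 RPM (102 to 133) and overlapped it by 52 bp. By position, 2 RP genes of 2L would therefore count as intersected in Qseq, and by name 1 does. Other genes were not recounted by position, so this change has no background share beside it. The peak at RpS13 would be higher than the one at RpL37A in Qseq (99.732 RPM) but not in MACS (117.913 RPM). The other arms could not be examined in this way, since in the Qseq list the gene named overlapped the peak in Release 6 in 98.8% of cases on 2L but in 65.9% on 3L, 3.20% on X and 0% on 2R and 3R.

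Flanking peaks were read apart from intersecting ones, since a flanking gene is merely the next gene in the list and can be far away. In the Qseq list 4 RP genes were only flanked (4.55%, against 3.35% of all genes and 3.56% in the length range). In the MACS list above 20 RPM 6 were (6.82%, against 3.90% of all genes and 4.43% in the length range). In the list under 20 RPM 1 was (1.14%, against 2.76% of all genes and 2.77% in the length range). Over the 3 lists 6 RP genes were flanked and never intersected (6.82%, against 5.52% of all genes). The share in the length range was 6.47%, close to that of RP genes. In all, 8 RP genes had a flanking peak, 2 on the 5' side and 6 on the 3' side. RpL5 and RpS26 were among them and also had a weak intersecting peak.

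Both genes with the peak on the 5' side were the paralogs RpL22 and RpL22-like, which encode alternative forms of the same large-subunit protein. RpL22-like had the highest value of any RP gene, 633 reads and 328.805 RPM (304 to 355) in the MACS list, where 2.26% of the 4209 peaks were as high or higher. The peak lay on 2R between RpL22-like and CG12782, which are 16375 bp apart in Release 6, and no Qseq peak overlapped it. RpL22 had 374 reads and 194.270 RPM (175 to 215) in Qseq, where 5.46% of peaks were as high, and 154.273 RPM (137 to 173) in MACS. Its peak (X:661441-662987, authors' numbering) lay in the 4814 bp between RpL22 and fz3, which encodes a Frizzled-family Wnt receptor and starts in the opposite direction. The start of fz3 is thus on the other side of the same gap.

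On the 3' side, the peak toward Fas3, the gene of the adhesion protein Fasciclin 3, had 110 reads and 57.138 RPM (47.0 to 68.9) in Qseq and 42.075 RPM in MACS. It lay 32424 bp from RpS26 on 2L and held a match to CACNAG. The peak toward CG9743 beside RpS7 had 55.060 RPM (45.1 to 66.6) in MACS alone, within a gap of 3448 bp. The peak toward CG3168 beside RpL17 had 23.894 RPM (17.5 to 31.9), also in MACS alone, in a gap of 1550 bp. RpL17 and RpS7 each carry several snoRNA genes inside them.

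The peak toward CG17018 (now Marf1) beside RpL5 had 64 reads and 33.244 RPM (25.6 to 42.5) in Qseq and 29.608 RPM in MACS, and lay 8625 bp from the weak peak inside RpL5 in the authors' numbering. A further weak flank of RpL5 had 13.505 RPM (8.82 to 19.8), 13217 bp away. RpL5 lies near the centromere end of 2L, where the authors' positions do not match Release 6, and no place within the gene is given. RpL35A, whose human counterpart is mutated in Diamond-Blackfan anaemia, had 45 reads and 23.375 RPM (17.0 to 31.3) in Qseq, in the 876 bp between RpL35A and PEK, the gene of the PERK kinase. The overlapping MACS peak, at 31.686 RPM, was given to PEK as an intersecting peak and did not name RpL35A.

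The last flanked gene, RpL13, had 29 reads and 15.064 RPM (10.1 to 21.6) in a peak toward CG13130 (now lncRNA:CR13130). It lay 4176 bp beyond the gene, inside a GATC fragment of 756 bp with a match to CACGCG. The ends of the fragment, 2L:9972733-9972762 and 2L:9973489-9973518 (plus strand, GATC in capitals), are shown as an example of a flanking fragment.
RpL13 left site: tgaaacgaccggaGATCgtttactcacgcc
RpL13 right site: tgccctttcgttgGATCgttttcactttgc

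Intersected RP genes lay on 3 arms. On 3R 7 of 23 RP genes were intersected, on 2L 4 of 18 and on 3L 2 of 13. On X and 2R together 0 of 33 were intersected, although 2 RP genes on X and 1 on 2R were flanked. Other protein-coding genes in the length range did not show such an absence, with 9.13% intersected on X and 11.9% on 2R, against 9.68% on 2L, 11.0% on 3L and 11.4% on 3R. This difference in where RP peaks lie was not tested.

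**Figure D4:**
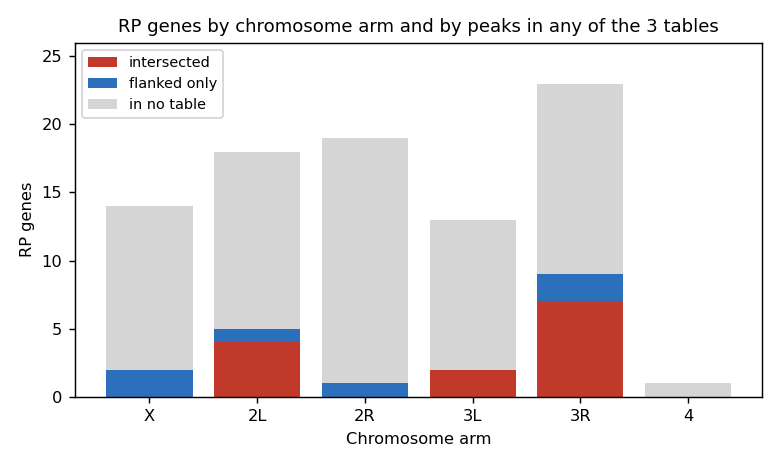
Number of RP genes on each chromosome arm (vertical axis), split into genes that a peak intersected, genes that were only flanked and genes in no list. Arm 3R has 7 intersected genes, and X and 2R have 0.

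Because DamID reads GATC fragments, the GATC sites of each gene were counted. RP genes had a median of 4 GATC sites and 3.47 per kb, against 7 sites and 4.28 per kb in the other protein-coding genes of the length range. RpL37-2 and RpL41 had none, and neither was named, but 15 of 280 genes of the length range without a site were intersected in any list (5.36%), so that these 2 genes show nothing about such genes. The 13 intersected RP genes had a median of 4 sites (2 to 19), and the 75 others 5 (0 to 22). Among RP genes with 1 or 2 sites 4 of 16 were intersected in any list, among those with 3 to 5 sites 7 of 39, and among those with 6 or more 2 of 31. In the length range the shares ran the other way, with 6.36% of genes with 1 or 2 sites, 8.55% with 3 to 5 and 12.7% with 6 or more. The difference rests on few RP genes and was not tested.

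**Figure D5:**
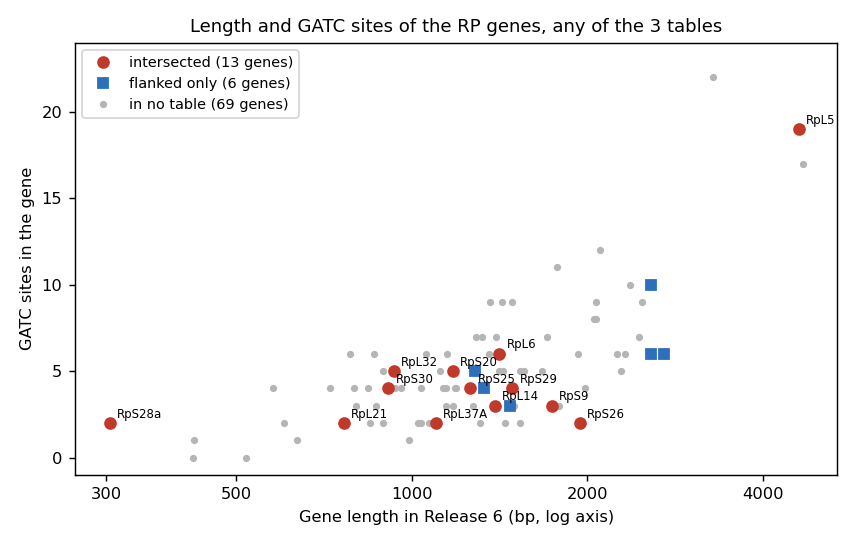
Number of GATC sites (vertical axis) against gene length in bp (horizontal log axis) for each of the 88 RP genes, with the 13 intersected genes named. Intersected genes lie across the length range, from RpS28a at 304 bp to RpL5 at 4606 bp, and 11 of them have 5 sites or fewer.

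Sequence motifs were counted on both strands in promoters, from 250 bases before to 50 bases after each gene start in Release 6. CACGTG stood in 7 of the 88 RP promoters (7.95%), against 4.15% of protein-coding genes, and the related box CACGCG in 13 (14.8%), against 6.12%. Of the 13 intersected RP genes, RpL6 alone had the E-box and none had the related box. The N-box CACNAG stood in 23 RP promoters (26.1%), against 29.7% of protein-coding genes, and among the intersected genes in those of RpL14, RpL32, RpS28a and RpS9. A GATC stood in 29.5% of RP promoters, against 45.2% of all protein-coding promoters. These matches are a description of the windows and not binding sites.

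A Minute locus was among the synonyms of 25 of the 88 RP genes. It was so for 7 of the 13 intersected genes, RpL14, RpL32, RpL37A, RpL5, RpS25, RpS26 and RpS29, and for 18 of the 75 others. A snoRNA gene lay inside 5 of the 13 (RpL14, RpL5, RpS20, RpS29 and RpS9) and inside 23 of the 75.

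Genes with related roles in translation and growth were counted in the same way, by intersecting Qseq peaks. Of 73 mitochondrial RP genes 3 were intersected (4.11%), with mRpL55 at 105.446 RPM, mRpL33 at 79.994 RPM and mRpL49 at 43.113 RPM. Of 54 translation factor genes 6 were (11.1%), led by eIF5B at 113.757 RPM, eEF1alpha1 at 71.163 RPM and eIF3f1 at 40.516 RPM. Of 17 genes of RNA polymerases I and III 2 were, Polr3F at 35.841 RPM and Polr1E at 33.244 RPM. None of 15 ribosome biogenesis genes and none of 5 RP genes under other symbols was intersected in Qseq.

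Of 48 proteasome genes 2 were intersected (4.17%), Rpn9 at 34.283 RPM and Rpt4 at 21.297 RPM. Of 257 snoRNA genes 4 were (1.56%), with snoRNA:gcl-a at 207.256 RPM, snoRNA:Psi28S-2442a at 195.828 RPM and snoRNA:Me28S-A1322 at 71.163 RPM. The last value equals that of eEF1alpha1, also on 2R, so the same peak may count in both lists. Of 9 genes of transcription factors reported to act on RP or growth genes 3 were, crol at 177.129 RPM, Trf2 at 104.927 RPM and Mnt at 30.127 RPM. The median gene length of the lists of protein-coding genes differed, from 909 bp for mitochondrial RP genes to 9160 bp for the transcription factors, and its part in the shares was not tested.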

How the data were processed

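m8 DamID libraries were made from whole embryos. The authors assembled 100 bp reads with DNASTAR SeqMan NGen 12.2, called peaks with Qseq (deposited p-value threshold 0.05) and MACS, and normalised to RPM. MACS settings were not given in the sources used here. From the Qseq list, the deposited count of reads in each peak gave the total behind the RPM, and MACS RPM were whole reads within 0.01. All columns used were mapped (0 without a group). The deposited p-values were not used otherwise.

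Genes were matched by name to Release 6 (symbol, or a synonym of 1 gene), leaving out 127 genes with a bracket in their symbol. Positions and sequence were used on 2L only. Upstream and downstream columns follow coordinates, so sides were set by strand. Analysis used Python 3.11.15, pandas 2.3.3 and scipy 1.17.1, and was tested on simulated data.

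Every intersected RP gene is named, as are flanked RP genes, neighbours in their peaks, the 3 highest genes per related list, and members around a threshold. RpS13 was chosen after its values were seen. Members and lists were chosen with earlier results of these data known.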

Additional observations from a re-analysis of the deposited data

How the results depend on the processing

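The tables hold 1 library, which limits every value to counting error. Intersected RP genes numbered 4 in Qseq, and 13 with both MACS lists together (14.8%). That was below the 17.1% of all genes and above the 10.3% in the length range with both MACS lists. There, 8 of the added genes have 19 to 35 reads and RpS28a has 120. When only Qseq peaks that intersect a single gene were counted, 1 RP gene was left (1.14%). The share also fell in the length range, from 4.76% to 2.29%, and among all genes, from 10.3% to 7.64%. On 2L, 1 RP gene was intersected by name and 2 by Release 6 coordinates, and other genes were not recounted in this way. With a minimum of 40 RPM, RP genes only flanked in Qseq numbered 2 (2.27%, against 1.90% of all genes and 2.03% in the length range). Without it they numbered 4 (4.55%, against 3.35% of all genes and 3.56% in the length range). The share of all genes intersected in Qseq, 10.3%, became 4.76% among other protein-coding genes in the RP length range. The RpL37A peak had 99.732 RPM in Qseq and 117.913 RPM in MACS, outside the Poisson interval of the Qseq value. The MACS peak is longer (2134 bp against 1199 bp) and contains the Qseq peak, so the interval does not measure this difference. At the other intersecting Qseq peaks the MACS value lay within the Qseq interval, but it too came from the same library. No paired analysis was possible because a single library underlies all peaks.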
